A study of Mus musculus with 50 samples.

Results

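The genes described here are 32 mouse genes of the endoplasmic reticulum (ER) unfolded protein response, listed by name from knowledge of the pathway. The list applies no threshold on a measured value, but it was drawn up with earlier results of these data known. All 32 were found among the 55416 genes of the deposited table, and all 32 passed the filter on low counts in both main batches. They comprise 10 ER chaperones and co-chaperones (Hspa5, Hsp90b1, Hyou1, Dnajb9, Dnajb11, Dnajc3, Sdf2l1, Creld2, Manf, Hspa13) and 6 lectin chaperones and disulfide isomerases (Calr, Canx, Pdia3, Pdia4, Pdia6, P4hb). The others are 3 sensors and transcription factors (Ern1, Atf6, Xbp1), 9 genes of ER-associated degradation (Edem1, Edem2, Herpud1, Sel1l, Syvn1, Derl1, Derl2, Derl3, Selenos), 3 genes of the translocon (Sec61a1, Sec61b, Ssr1) and the cytosolic chaperone Hsp90aa1.

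RNA was sequenced from RAW264.7 cells, an established mouse macrophage line, in 50 libraries that carried a genotype, a treatment and a batch label. DMXAA, a small molecule that activates mouse STING, was given at 10 µg/mL for 2 h, and Sanofi-14h, which the labels call an SGK inhibitor, at 500 nM for 2 h before it. SGK1 and SGK3 are serum- and glucocorticoid-regulated kinases. Control cells were labelled wild type with an empty-vector sgRNA, and the edited lines SGK1 knockout, SGK3 knockout or double knockout of both. In batch b1 there were 3 control libraries at rest, 5 with DMXAA and 5 with the inhibitor and DMXAA, 3 of the SGK3 knockout at rest and 5 with DMXAA, and 5 of the double knockout with DMXAA. In batch b2 there were 3 control libraries at rest and 4 with DMXAA, 3 of the SGK1 knockout at rest and 4 with DMXAA, and 3 of the double knockout at rest and 3 with DMXAA. Batch b3 held 4 rerun libraries, of which 1 SGK1 knockout and 2 double knockout libraries with DMXAA were used only as an alternative. The labels do not say whether an edited line was 1 clone, whether replicate libraries came from separate cultures, or which libraries received the vehicle. The p-values therefore measure the spread between these libraries, which may be technical.

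The unfolded protein response adjusts the folding capacity of the ER to its load. Unfolded proteins draw the chaperone Hspa5 (BiP) away from the sensors Ern1 (IRE1α), Atf6 and PERK. Activated IRE1α splices Xbp1 mRNA to encode a transcription factor, ATF6 is cut to release another, and together they raise genes for chaperones, disulfide isomerases and the degradation of misfolded proteins. Both factors act through ER stress response elements in the promoters of their target genes.

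Promoter sequences were read for 25 of the 32 genes from RefSeq (GRCm38.p6), from 250 bases before to 50 after the annotated start. The ER stress response element, searched on both strands as CCAAT, any 9 bases, then CCACG, was present in 9 of these 25 genes (36%), against 0.137% of the 27025 genes with a promoter in the table. Its variant, ATTGG, any 1 base, then CCACG, was present in Dnajb11 and Herpud1 (8% against 0.0444%). The XBP1 motif, TGACG followed directly by TGG and searched on both strands, was in none of the 25 and in 0.714% of all genes, while CCACG alone, which both elements contain, was in 22 of the 25 (88%) and in 35.5% of all. The windows are shown because 9 of these 11 genes were lower together in the double knockout of b1, as described below. They run 5′ to 3′ on the strand of the gene, with the element in capitals; where it lies in reverse it reads CGTGG, 9 bases, then ATTGG.
Hspa5 (chr2:34772005-34772063, plus strand): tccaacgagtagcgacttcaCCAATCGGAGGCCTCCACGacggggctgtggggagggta
Hsp90b1 (chr10:86705618-86705676, minus strand): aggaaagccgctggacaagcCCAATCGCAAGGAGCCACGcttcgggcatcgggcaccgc
Hsp90b1 (chr10:86705513-86705571, minus strand): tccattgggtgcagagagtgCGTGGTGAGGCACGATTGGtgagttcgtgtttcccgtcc
Dnajc3 (chr14:118937807-118937865, plus strand): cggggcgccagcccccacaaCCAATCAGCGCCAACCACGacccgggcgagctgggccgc
Creld2 (chr15:88819500-88819558, plus strand): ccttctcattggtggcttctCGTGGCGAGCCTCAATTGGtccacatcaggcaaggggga
Calr (chr8:84847055-84847113, minus strand): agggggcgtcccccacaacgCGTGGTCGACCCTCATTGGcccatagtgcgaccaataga
Canx (chr11:50325780-50325838, minus strand): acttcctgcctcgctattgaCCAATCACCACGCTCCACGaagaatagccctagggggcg
Pdia6 (chr12:17266471-17266529, plus strand): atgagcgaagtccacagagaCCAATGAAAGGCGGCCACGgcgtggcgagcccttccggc
Syvn1 (chr19:6046512-6046570, plus strand): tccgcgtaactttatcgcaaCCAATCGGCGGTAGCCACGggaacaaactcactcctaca
Herpud1 (chr8:94386357-94386407, plus strand): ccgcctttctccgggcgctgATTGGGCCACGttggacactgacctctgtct
Hsp90b1 holds a pair of elements, one in each direction. The match in Derl3, hardly expressed here, and that in Dnajb11, which lies just after the annotated start, are not printed. A match describes these letters only.

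Depth, as the total of estimated counts per library, lay between 57859509 and 101068327 (b1), 63461414 and 112007140 (b2), and 76295599 and 86754670 (b3). All 8 macrophage markers exceeded a mean of 10 CPM (counts scaled by library size, the unit of all levels by library here), with a sum of 6987 to 12980 CPM per library, while no list of markers of 7 other cell types summed to more than 1.75 CPM in any library. Sgk1 was lower in the SGK1 knockout than in control cells with DMXAA by a log2 difference of -3.03 (edgeR adjusted p = 0.00147) and in the double knockout by -3.39 in b1 and -3.82 in b2. It was also lower under DMXAA with the inhibitor (-2.13) and in the SGK3 knockout (-1.21), and at rest it did not pass in the SGK1 knockout (-1.66, adjusted p = 0.116) or the double knockout of b2 (-1.80, 0.233). Sgk3 was not lower in the SGK3 knockout (log2 difference -0.08, adjusted p = 0.38 at rest; 0.06, 0.266 with DMXAA) and was higher in the double knockout of b1 (0.23, 1.77e-05); counts over the whole gene do not check a small edit. In b2, 5 of 20 libraries had levels that rose with transcript length by more than 0.1 log2 units per doubling against the batch mean: E and F of the SGK1 knockout at rest, P and R of the SGK1 knockout with DMXAA, and X of the double knockout with DMXAA. This cut is one-sided. Levels fell with length in B of resting control cells (-0.21) and in K, L and N of control cells with DMXAA (-0.10, -0.18 and -0.16). They also fell in I of the double knockout at rest (-0.12) and T with DMXAA (-0.14). Length trend and line were thus not balanced in b2. RNA from bulk cells was measured, so fewer cells of a state and less RNA per cell cannot be told apart.

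Per length of transcript, the soluble chaperones and isomerases were the most abundant of the 32 genes in resting control cells of b1. Calr, a calcium-binding lectin chaperone, stood at 1047 ± 23.2 TPM (abundance scaled by transcript length and depth; SD, n = 3), Hsp90b1 (GRP94) at 1011 ± 66.9 and Hspa5, the master ER chaperone, at 965 ± 69.5. These 3 did not differ beyond their spread in b1, and in b2 they again held the top 3 places. Pdia3, the isomerase that works on glycoproteins with calreticulin and calnexin, followed at 695 ± 50.4 TPM and P4hb, the archetypal protein disulfide isomerase, at 648 ± 29.0, which overlapped within their SD. At the other end were the J-domain co-chaperone Dnajb9 at 9.81 ± 2.38 TPM and the sensor kinase Ern1 at 4.65 ± 0.556. Derl3, a derlin of the degradation channel, was near the detection limit, with 0 to 35 counts per library in b1 (median 11, 4 of 26 libraries at 0) and 0 to 30 in b2 (median 4.5, 8 of 20 at 0). No fold change is given for it. As a share of all counts the 32 genes took 1.33 to 1.46% in resting control cells of b1 and 1.44 to 1.51% in those of b2.

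DMXAA raised most of the chaperone genes of control cells in b1, by modest amounts, and lowered Xbp1. Of the 32 genes, 17 rose and 2 fell at an adjusted p under 0.05 (edgeR's quasi-likelihood test, Benjamini-Hochberg adjustment over all genes tested); of the 16947 genes tested 17.9% rose and 17.4% fell. The median log2 change of the 32 was 0.16, against 0.00 for all genes. Among the roles, 8 of 10 chaperones, 3 of 6 lectin chaperones and isomerases, 3 of 9 degradation genes, 1 of 3 translocon genes, Atf6 and Hsp90aa1 rose. Dnajb9 (chr12:44252342-44257109, GRCm39), which recruits BiP to misfolded clients, changed most: it stood at 16.4, 11.1 and 10.7 CPM at rest and at 30.4, 29.7, 31.1, 31.5 and 28.0 CPM with DMXAA. All 5 treated libraries were above all 3 resting ones, a 2.36-fold rise (log2 change 1.24 ± 0.11, SE; adjusted p = 2.2e-11). Hspa5 (chr2:34661982-34667559, GRCm39) stood at 1607, 1425 and 1453 CPM at rest and at 2253, 2166, 2259, 1956 and 2151 CPM with DMXAA. Again the groups did not overlap, and the rise was 44.3% (log2 change 0.53 ± 0.06, adjusted p = 4.8e-09).

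The genes of degradation and sensing split in that comparison. Syvn1, the ubiquitin ligase HRD1 of the ER membrane, was at 43.5 to 50.3 CPM at rest and at 61.6 to 73.8 with DMXAA, without overlap (log2 change 0.48 ± 0.07, adjusted p = 9.1e-07). Atf6 and Selenos, a selenoprotein of the degradation complex, rose by log2 changes of 0.36 ± 0.07 and 0.35 ± 0.06. Xbp1 (chr11:5470659-5475893, GRCm39) went the other way, from 335, 318 and 320.3 CPM at rest to 228, 202, 221, 204 and 204 CPM with DMXAA. Every treated library was below every resting one, and the level fell by 34.7% (log2 change -0.61 ± 0.06, adjusted p = 9.3e-11); counts per gene do not separate its spliced from its unspliced form. Edem2, a mannosidase that marks glycoproteins for degradation, also fell (log2 change -0.29 ± 0.07). Sdf2l1, a partner of ER J-proteins, was at 158.1 to 203.5 CPM at rest and 168.5 to 184.9 with DMXAA and did not pass the test (adjusted p = 0.61). With limma on log2(TPM + 1) 11 of the 19 calls were made, with Manf turning to a log2 change of -0.09, and with both batches in one fit 12 were.

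**Figure D1:**
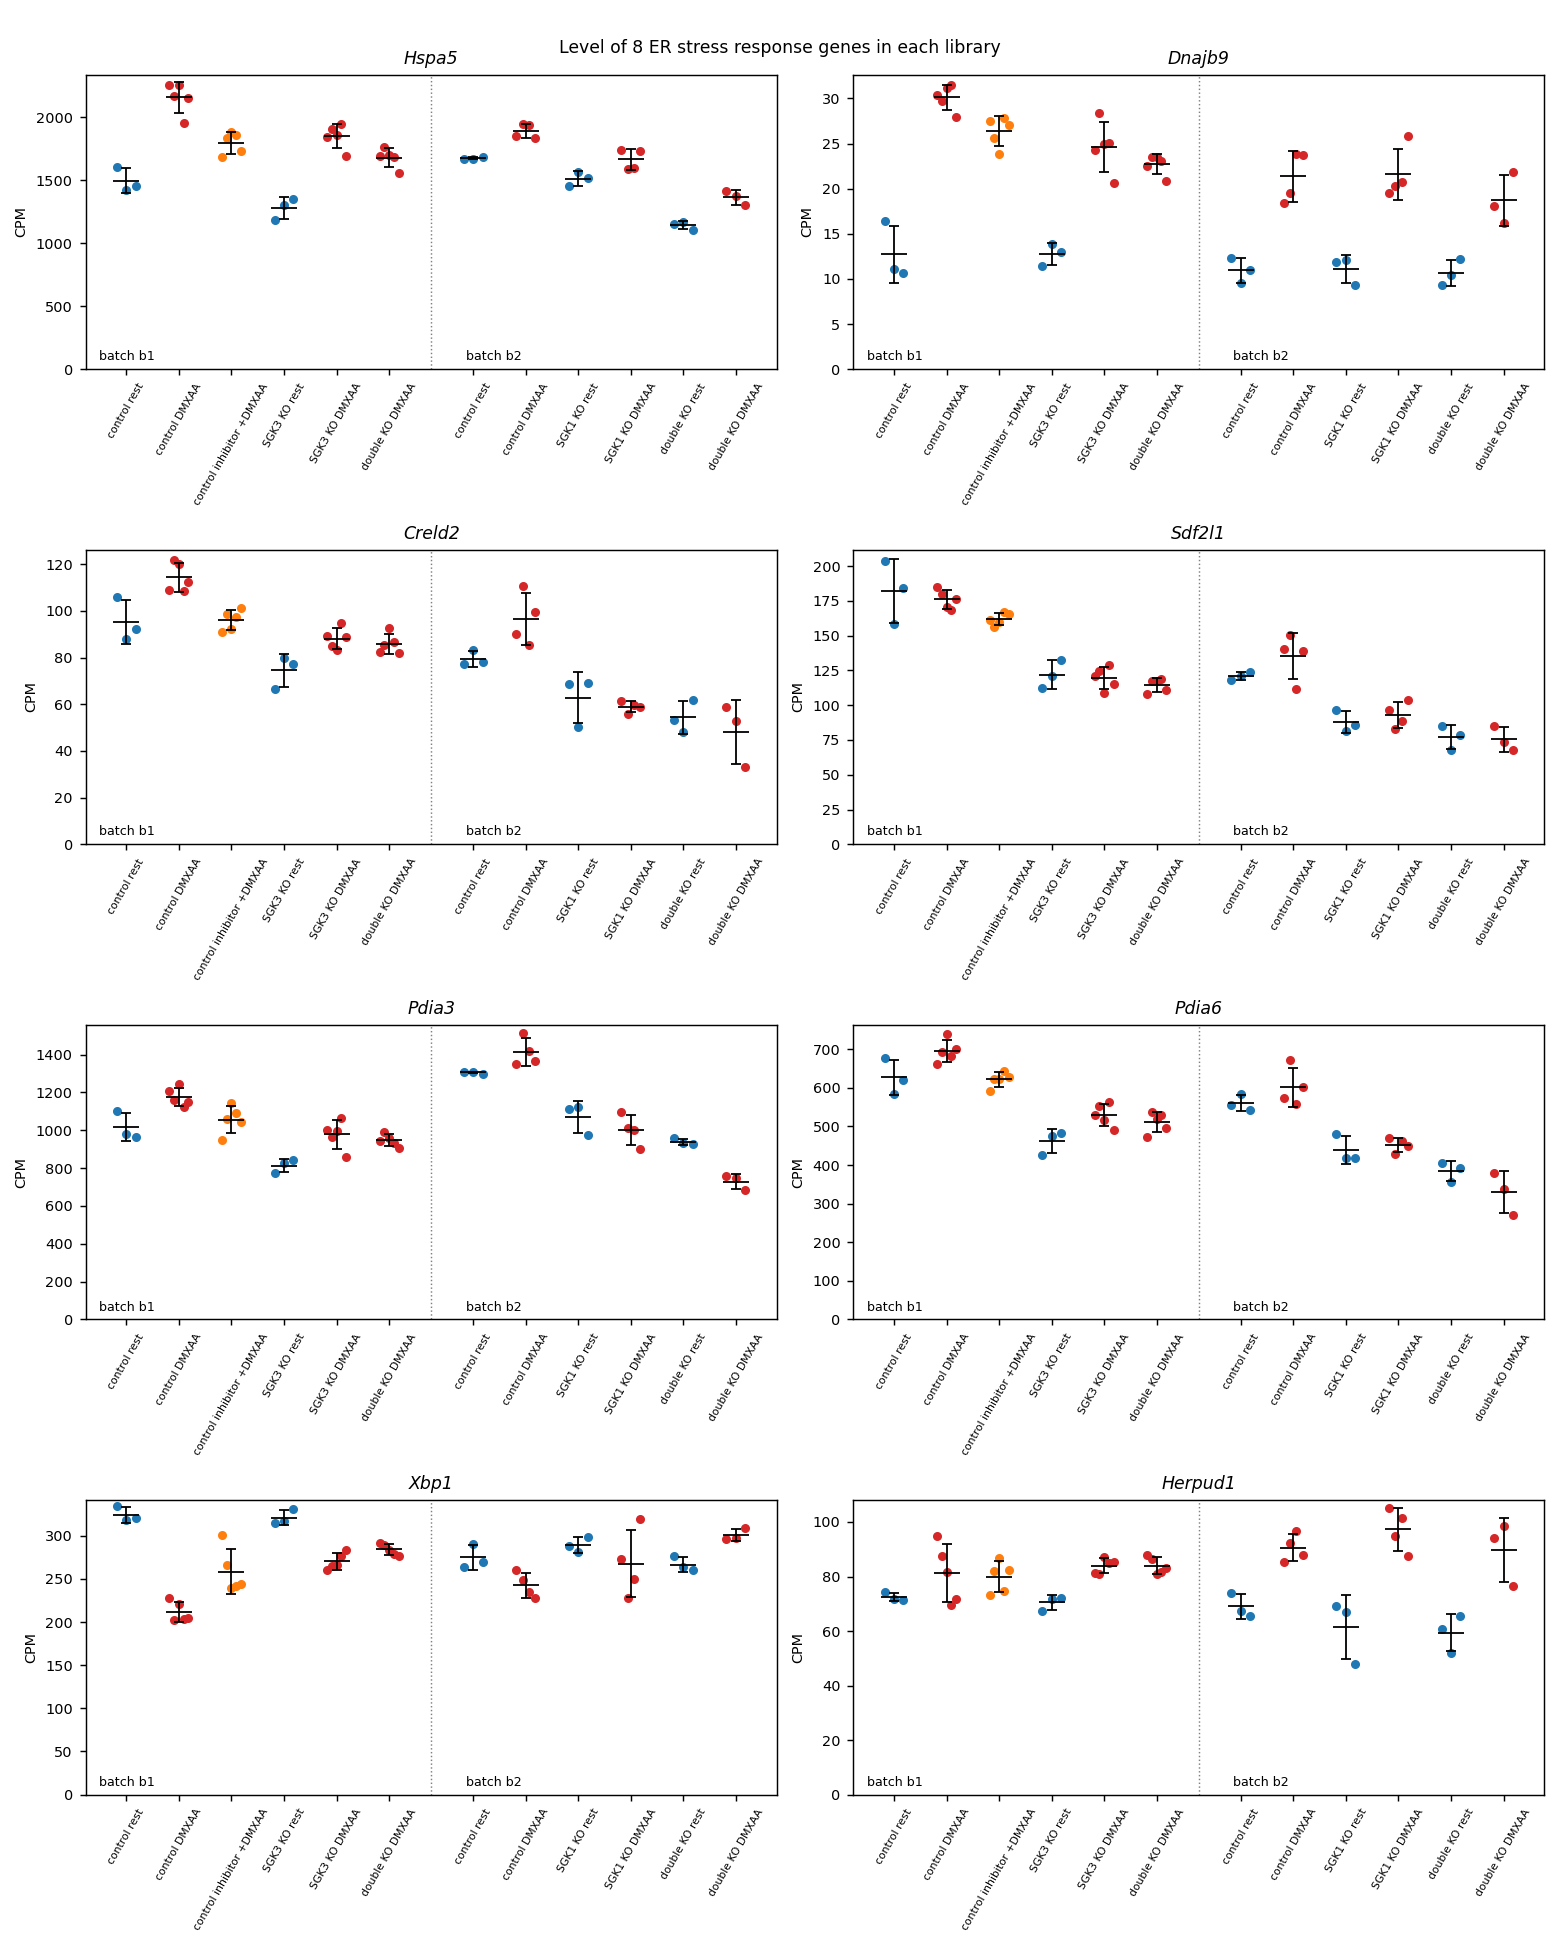
Levels of 8 of the genes in each library in CPM (linear axes from 0), by group and batch; points are libraries (blue at rest, red with DMXAA, orange with the inhibitor and DMXAA), horizontal lines the group mean and bars 1 SD. Hspa5 and Dnajb9 stand higher with DMXAA in b1, Sdf2l1, Pdia3 and Pdia6 stand lower in the edited lines, and Xbp1 falls to 202 CPM in control cells of b1 with DMXAA.

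In the SGK3 knockout of b1, DMXAA also raised chaperones and lowered Xbp1. Here 17 of the 32 genes rose and 2 fell, against 16.4% and 13.7% of all genes, with a median log2 change of 0.19. The 17 include Derl3, of counts near 0, whose call (edgeR adjusted p = 0.0435) was lost in 7 of 13 alternatives. Dnajb9 went from 11.4, 13.9 and 13.0 CPM at rest to 24.3, 28.4, 24.9, 25.04 and 20.6 CPM (log2 change 0.95 ± 0.10, adjusted p = 9.7e-09), and Hspa5 rose by 44.7% (log2 change 0.53 ± 0.06). Herpud1, a scaffold of the degradation complex, and Sec61b, a subunit of the translocation channel, each rose by a log2 change of 0.25 (adjusted p = 0.0057 and 0.02). The call on Sec61b was lost without the treated library 2 (adjusted p = 0.063) or the resting libraries 1 (0.066) or 3 (0.086). Xbp1 fell from 315, 318 and 331 CPM to 261, 265, 266, 276 and 284 CPM, a log2 change of -0.25 ± 0.06 (adjusted p = 0.00081). The difference between the lines in the response was tested for every gene, and Xbp1 alone of the 32 passed, as 1.04% of all genes did (difference 0.37 ± 0.08 in log2 units, adjusted p = 0.014). That call was lost without the knockout's resting library 1 (adjusted p = 0.066) or 2 (0.060) or the control's resting library 1 (0.066). With limma on log2(TPM + 1) the adjusted p was 0.050, and with both batches in one fit it was 0.16.

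In control cells of b2 Dnajb9 rose with DMXAA and no other gene of the 32 passed the test. The count of 1 rising and 0 falling (25 had log2 changes above 0) is near the background, since 2.52% of all 16622 genes tested rose and 1.46% fell. At rest Dnajb9 was at 12.3, 9.55 and 11.04 CPM and with DMXAA at 18.4, 19.5, 23.8 and 23.7 CPM. The groups did not overlap, with a 1.95-fold rise (log2 change 0.96 ± 0.15, adjusted p = 0.00046). Hspa5 was at 1671, 1666 and 1686 CPM at rest and 1851, 1948, 1935 and 1837 CPM with DMXAA (log2 change 0.18, adjusted p = 0.13). The groups of Hspa5 were apart but the difference did not pass the test. DESeq2 and the fit of both batches called 3 genes each here.

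Between the batches the control response itself differed for 2 of the 32 genes, where 3.21% of 18315 genes did in a joint fit. Hspa5 rose less in b2, by a log2 difference of -0.34 ± 0.08, and Xbp1 fell less, by 0.44 ± 0.10 (both adjusted p = 0.0055). Xbp1 in b2 went from 264, 291 and 269.5 CPM at rest to 259.9, 249, 234 and 228 CPM with DMXAA and was not called (adjusted p = 0.42). The batches cannot be told apart from anything else that changed between them.

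Dnajb9 rose with DMXAA in both edited lines of b2. In the SGK1 knockout it went from 11.9, 12.1 and 9.34 CPM to 19.5, 20.3, 20.7 and 25.8 CPM (log2 change 0.96 ± 0.15, adjusted p = 0.00027), and in the double knockout from 9.36, 10.4 and 12.2 CPM to 18.1, 16.2 and 21.8 CPM (log2 change 0.81 ± 0.16, adjusted p = 0.003). Thus Dnajb9 rose in each of the 5 responses tested. Without the 5 libraries of steep length trend its log2 change in the SGK1 knockout was 0.76, with library D alone left at rest. Herpud1 rose in both lines: from 69.1, 67.0 and 47.9 to 105, 94.8, 101.4 and 87.6 CPM in the SGK1 knockout (log2 change 0.66 ± 0.12, adjusted p = 0.00084). In the double knockout it went from 60.6, 52.1 and 65.5 to 94.0, 98.6 and 76.4 CPM (log2 change 0.59 ± 0.13, adjusted p = 0.0052). Neither pair of groups overlapped. In control cells of the batch Herpud1 went from 74.0, 67.3 and 65.7 to 85.3, 92.2, 96.65 and 88.0 CPM, also without overlap. That log2 change of 0.39 ± 0.12 did not pass (adjusted p = 0.081).

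In all, 2 of the 32 genes rose and 1 fell in the SGK1 knockout (5.89% and 5.28% of all genes), with a median log2 change of -0.03. In the double knockout 5 rose and 2 fell (4.31% and 2.45%), with a median of -0.02. The other genes that rose in the double knockout were Syvn1 (log2 change 0.49, adjusted p = 0.014), the mannosidase-like Edem1 (0.31, 0.028) and Hspa5 (0.26, 0.016), and those that fell were Pdia3 (-0.37, 0.0048) and Ssr1, a subunit of the translocon-associated complex (-0.25, 0.019). With only the 2 groups compared in the fit, Dnajb9 alone kept its call (adjusted p = 0.049), and those of the other 6 genes were lost (0.059 for Herpud1 to 0.204 for Ssr1). With the rerun libraries added, Pdia3 stood at -0.15 (adjusted p = 0.606), Edem1 at 0.16 (0.645) and Ssr1 at -0.16 (0.251), none of them called. The count of 7 dropped to 4 without treated library U and to 3 without resting library I, and that of the SGK1 knockout was 5 without resting library D. Over all genes 758, 697 and 2336 were called in those fits, in that order. The responses of the lines were also compared with that of control cells directly. In the SGK1 knockout no gene of the 32 passed by edgeR, DESeq2 or limma, where 0.451% of all genes passed by edgeR. At an unadjusted edgeR p under 0.05 there were 2, and unchanged genes pass that cut at a rate of 0.05. In the double knockout Pdia3 alone passed (0.782% of all genes), with a difference of -0.48 ± 0.11 (adjusted p = 0.035). That call was lost in 11 of the 13 fits that left out 1 library, with adjusted p up to 0.117, and with the 2 rerun libraries and that of the SGK1 knockout added it was -0.27.

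**Figure D2:**
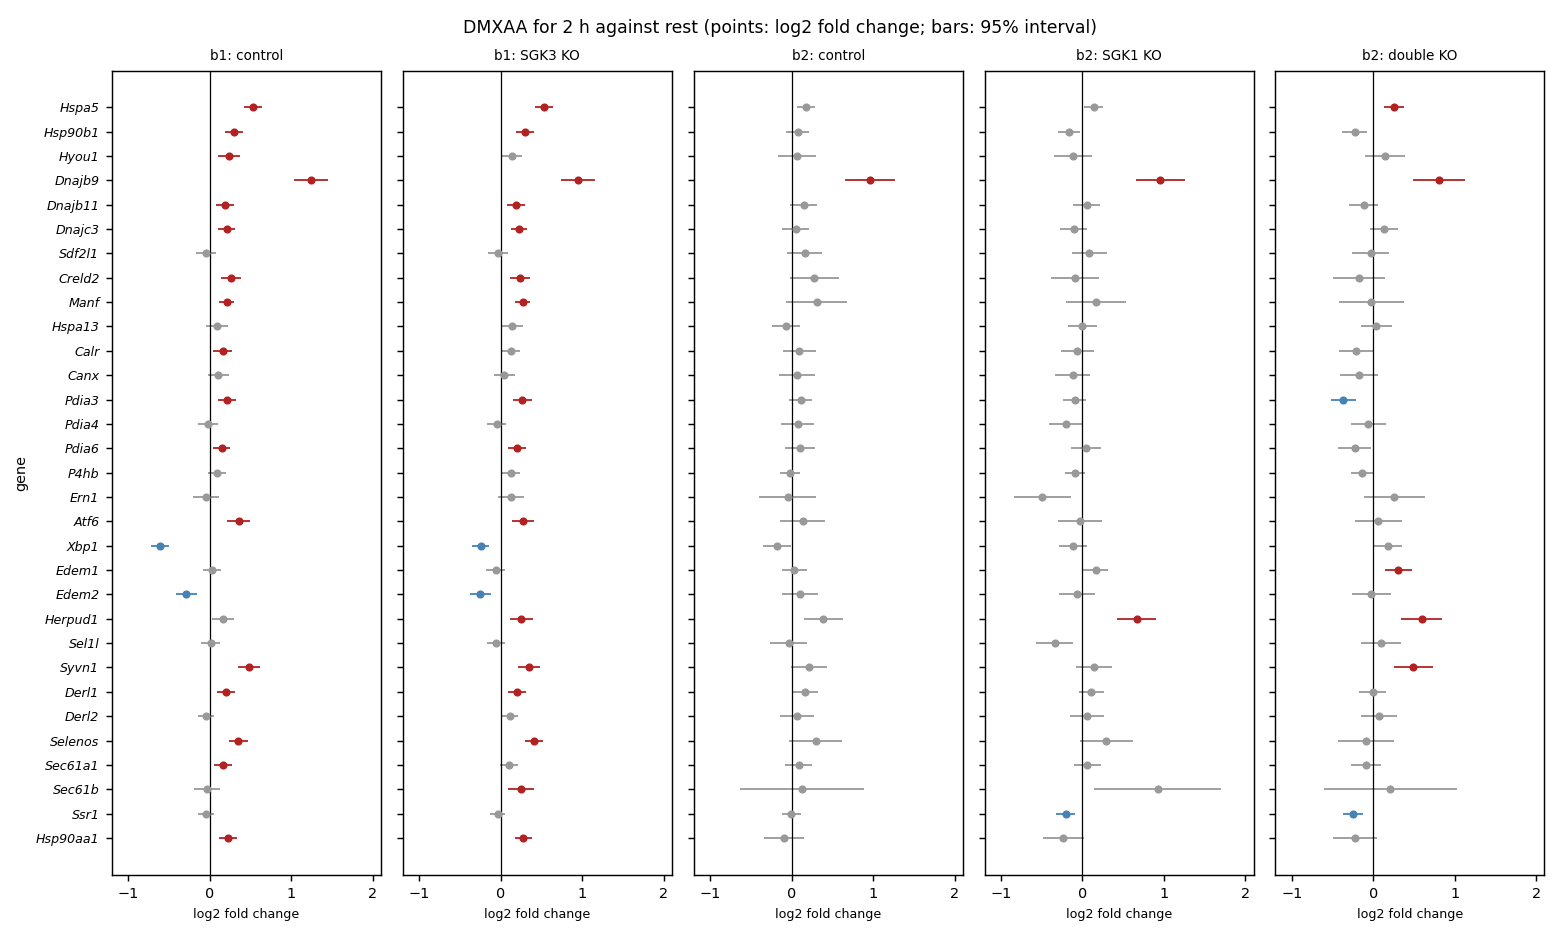
Log2 fold change with DMXAA against rest in each line and batch, with 95% intervals; coloured points passed an adjusted p of 0.05 (red higher, blue lower) and grey ones did not. Derl3 is left out because its counts are near 0. Dnajb9 is higher in all 5 panels, and Xbp1 is lower in both b1 panels.

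At rest the SGK3 knockout of b1 had lower levels of chaperones and isomerases than control cells. None of the 32 genes was higher and 12 were lower, where 5.84% and 4.60% of all genes were; the median log2 difference was -0.16 against -0.01. The 12 were 7 chaperones, 4 isomerases and Derl1, a derlin of the degradation channel. Sdf2l1 (chr16:16948002-16950247, GRCm39) was at 203.5, 158 and 184.5 CPM in control cells and at 112, 121 and 132.5 CPM in the knockout. The groups did not overlap and the difference was -33.0% (log2 difference -0.58 ± 0.07, adjusted p = 1.9e-07). Pdia6, an isomerase that also dampens IRE1α, was lower by 26.4% (log2 difference -0.44 ± 0.06), and Pdia4 by a log2 difference of -0.41 ± 0.07. Creld2 and Manf, secreted ER stress proteins, had log2 differences of -0.36 ± 0.07 and -0.34 ± 0.05. For Hspa5 the knockout libraries were at 1181, 1306 and 1349 CPM, below the 3 control libraries given above (log2 difference -0.23, adjusted p = 0.015), though not past the threshold without the knockout's library 1 (adjusted p = 0.15) or the control's library 1 (0.13). The sensors did not pass, and Dnajb9, at 12.8 ± 1.26 against 12.7 ± 3.17 CPM, was level within its spread.

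With DMXAA the SGK3 knockout of b1 was lower in 19 of the 32 genes and higher in 2, where 9.59% and 13.3% of all genes were. The median log2 difference was -0.18 against 0.00. The 19 held 9 of the 10 chaperones, all 6 lectin chaperones and isomerases, 2 of the 9 degradation genes and 2 of the 3 translocon genes. Sdf2l1 was at 185, 180.2, 170.4, 168.5 and 176 CPM in control cells and at 121, 125, 109, 129 and 115 CPM in the knockout, without overlap (log2 difference -0.56 ± 0.05, adjusted p = 1.0e-09). Pdia6 followed at -0.39 ± 0.05, Pdia4 at -0.44 ± 0.05, Creld2 at -0.37 ± 0.05 and Hyou1, a nucleotide exchange factor for BiP, at -0.35 ± 0.06. The 2 that were higher were Xbp1 and Ern1, whose product splices Xbp1. Ern1 was at 15.5, 16.4, 16.6, 15.7 and 14.95 CPM in control cells and at 21.6, 20.1, 21.0, 18.01 and 20.6 CPM in the knockout (log2 difference 0.36 ± 0.07, adjusted p = 0.00023). The knockout libraries of both genes lay above all control libraries (Xbp1: log2 difference 0.35 ± 0.05, adjusted p = 1.1e-06).

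The double knockout of b1, measured with DMXAA only, gave the same counts: 19 lower and 2 higher of 32, where 11.9% and 14.5% of all genes were, with a median of -0.21 against 0.00. It shares its 5 control libraries with the comparison above. Sdf2l1 was at 108, 118, 117, 119 and 111 CPM (log2 difference from control -0.62 ± 0.05, adjusted p = 6.8e-11), Hyou1 at -0.48 ± 0.06, Pdia4 at -0.49 ± 0.05 and Pdia6 at -0.44 ± 0.05. Dnajb9 was at 22.5, 23.5, 23.6, 23.1 and 20.9 CPM, below every treated control library (log2 difference -0.41 ± 0.09, adjusted p = 0.00042). Hspa5 was at 1692, 1767, 1701, 1680 and 1557 CPM, also below every treated control library, a difference of -22.1% (log2 difference -0.36 ± 0.05, adjusted p = 5.9e-07). Xbp1 was at 292, 289.5, 283.5, 279.5 and 277 CPM, above every treated control library (log2 difference 0.42 ± 0.05, adjusted p = 2.6e-08), and Ern1 was higher by 0.25 ± 0.07 (adjusted p = 0.0066). Against the SGK3 knockout directly, no gene of the 32 passed with edgeR, DESeq2 or limma, where 1.82% of all genes were higher and 3.24% lower by edgeR. At an unadjusted edgeR p under 0.05 there were 4, and unchanged genes pass that cut at a rate of 0.05. For Hspa5 the difference from the SGK3 knockout was -0.14 (adjusted p = 0.11). Leaving out treated library 5 of the SGK3 knockout brought 2 calls, both lower in the double knockout.

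Pretreatment of control cells with Sanofi-14h went with lower chaperone levels under DMXAA as well. Of the 32 genes 16 were lower and 2 higher than without it, against 10.1% and 10.6% of all genes, and the median log2 difference was -0.14 against 0.00. The 16 were 6 chaperones, all 6 lectin chaperones and isomerases, 2 translocon genes, Atf6 and Edem1. The treated control libraries are again those of the comparisons above. Hspa5 was at 1680, 1832, 1886, 1858 and 1735 CPM with the inhibitor, below all 5 libraries without it (log2 difference -0.26 ± 0.05, adjusted p = 0.00017). Calr, Pdia4 and Creld2 each differed by -0.25 ± 0.05. Sdf2l1, at 156 to 167 CPM with the inhibitor and thus below every library without it, was not called (log2 difference -0.12, adjusted p = 0.11). Xbp1 was at 301, 267, 239, 241.5 and 245 CPM, above every library without the inhibitor (log2 difference 0.29 ± 0.05, adjusted p = 5.0e-05). Sec61b was higher too, at 196, 167, 139.6, 178 and 165 CPM against 139, 119, 124, 132 and 156 CPM, with overlap (log2 difference 0.33 ± 0.07, adjusted p = 0.00079). With both batches in one fit, 8 of the 18 calls were made.

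In batch b2 the SGK1 knockout at rest had 0 of the 32 genes higher and 3 lower, where 3.28% and 3.15% of all genes were; the median log2 difference was -0.07 against -0.02. The 3 were Sdf2l1 (log2 difference -0.46 ± 0.12, adjusted p = 0.026), Pdia6 (-0.35 ± 0.10, 0.046) and Pdia3 (-0.29 ± 0.08, 0.034). Sdf2l1 was at 118, 121 and 124 CPM in control cells and at 96.6, 81.2 and 85.4 CPM in the knockout. The groups of Sdf2l1 did not overlap, but the count rested on single libraries. It was 0 without knockout library E or F or without control library A or B. Without knockout library D, which left E and F of steep length trend, it was 11 (3 higher, 8 lower). Calls over all genes moved too, from 545 higher and 524 lower. They came to 328, 323, 381 and 270 without E, F, A and B, and to 3202 without D. With DESeq2 the count was 8. Without the 5 libraries of steep length trend, library D alone was left in the knockout group, so that fit cannot decide the count. Sdf2l1 stood there at -0.34, Pdia3 at -0.24 and Pdia6 at -0.23. With the length trend removed, Sdf2l1 stood at -0.15 and was not called (edgeR adjusted p = 0.36). The short Sec61b transcript, at the 5.79th percentile of length, ranged from 15.5 to 47.3 CPM over the 3 knockout libraries.

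With DMXAA, 12 of the 32 genes were lower in the SGK1 knockout of b2 than in control cells and 0 were higher, where 4.07% and 4.66% of all genes were. The median log2 difference was -0.18 against 0.00. They were 6 chaperones, 4 lectin chaperones and isomerases, Selenos and Ssr1. Creld2 was at 90.2, 111, 85.3 and 99.5 CPM in control cells and at 61.5, 55.7, 59.6 and 59.0 CPM in the knockout, without overlap (difference -38.9%, log2 difference -0.71 ± 0.14, adjusted p = 0.0023). Pdia3 (chr2:121244256-121269168, GRCm39) was at 1351, 1516, 1419 and 1369 CPM in control cells and at 1098, 1010, 1001 and 904 CPM in the knockout, again without overlap (difference -29.0%, log2 difference -0.49 ± 0.07, adjusted p = 3.7e-05). Sdf2l1 differed by -0.54 ± 0.10 and Calr by -0.46 ± 0.09. For Hspa5 the difference was -0.19 ± 0.05 (adjusted p = 0.039), and it was not past the threshold in 6 of 8 fits that left out 1 library (adjusted p up to 0.125). Manf, Selenos, Hspa5 and Ssr1, all called here, were not called without the 5 libraries of steep length trend (edgeR adjusted p = 0.059, 0.29, 0.070 and 0.084).

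At rest the double knockout of b2 had 9 of the 32 genes lower and 0 higher, where 1.87% and 1.16% of all genes were. The median log2 difference was -0.25 against 0.00. The 9 were 5 chaperones and 4 lectin chaperones and isomerases. Hspa5 was at 1155, 1165 and 1108 CPM, below the 3 control libraries of the batch given above, a difference of -31.8% (log2 difference -0.55 ± 0.06, adjusted p = 7.9e-06). Sdf2l1 was at 85.3, 67.6 and 78.4 CPM, also below every control library (log2 difference -0.65 ± 0.12, adjusted p = 0.0018). Calr and Pdia6 each differed by -0.54 and P4hb by -0.46 ± 0.07. The call on Dnajc3, a J-domain co-chaperone of BiP (-0.36, adjusted p = 0.03), was lost in 5 of 6 fits that left out 1 library. Without the 5 libraries of steep length trend, none of which is in either group, 15 of the 32 genes were called. The share of all genes called in that fit is not given here.

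With DMXAA the double knockout of b2 was lower in chaperones, isomerases and translocon genes. Of the 32 genes 18 were lower and 1 higher, where 6.41% and 6.43% of all genes were, and the median log2 difference was -0.39 against -0.01. The 18 held 8 chaperones, all 6 lectin chaperones and isomerases, 2 degradation genes and 2 translocon genes. Pdia3 was at 758, 745.5 and 682 CPM, each below all 4 treated control libraries, a difference of -48.4% (log2 difference -0.96 ± 0.07, adjusted p = 1.5e-08). Pdia6 was at 379, 338 and 271 CPM against 574, 673, 558 and 603 CPM in control cells, without overlap (log2 difference -0.87 ± 0.10, adjusted p = 2.7e-06). Creld2 was at 58.9, 52.7 and 32.9 CPM, with library X, of steep length trend, lowest (difference -50.1%, SE of the log2 difference 0.16, adjusted p = 0.00014). Hspa5, at 1417, 1375 and 1299 CPM, differed by -0.47 ± 0.06 (adjusted p = 1.1e-05), and Calr by -0.84 ± 0.10. Xbp1 was the gene that was higher, at 296, 298 and 309 CPM against 259.9, 249, 234 and 228 CPM (log2 difference 0.31 ± 0.09, adjusted p = 0.021). That call was lost without control library M or N or knockout library U or X (adjusted p of 0.053, 0.070, 0.051 and 0.079).

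The 2 rerun double knockout libraries of b3 held higher levels of the leading isomerase than the 3 libraries of b2: Pdia3 was at 1017 and 1004 CPM. Hspa5 in them, at 1401 and 1328 CPM, lay within the range of b2, and Creld2, at 65.5 and 73.7 CPM, above it. Levels of b3 and of b2 were scaled in separate runs, so these comparisons are approximate. No control library of b3 could be assigned, so the rerun libraries were not compared within their batch. When the rerun libraries were added to their b2 groups, 16 of the 32 genes were lower in the double knockout and 1 higher. Without the 5 libraries of steep length trend the counts were 18 and 1. The shares of all genes called in these alternative fits are not given here.

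Set against the SGK1 knockout under DMXAA, the double knockout of b2 was lower in 8 of the 32 genes and higher in 0, where 1.16% and 0.812% of all genes were; the median log2 difference was -0.26 against 0.00. They were Hspa5, Hsp90b1 and the J-domain co-chaperone Dnajb11, the isomerases Pdia3, Pdia6 and P4hb, and the translocon genes Sec61a1 and Ssr1. Pdia3 and Pdia6 each differed by -0.46 (adjusted p = 0.0011 and 0.014). All 3 double knockout libraries of Pdia3 and of Pdia6 lay below all 4 of the SGK1 knockout. The count was 2 without double knockout library U, 5 without libraries T or X or SGK1 knockout library O, and 4 with those 5 libraries of steep length trend left out or with the rerun libraries added. Over all genes 173, 187, 287 and 261 were called without U, T, X and O. No gene was called when only these 2 groups were fitted.

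**Figure D3:**
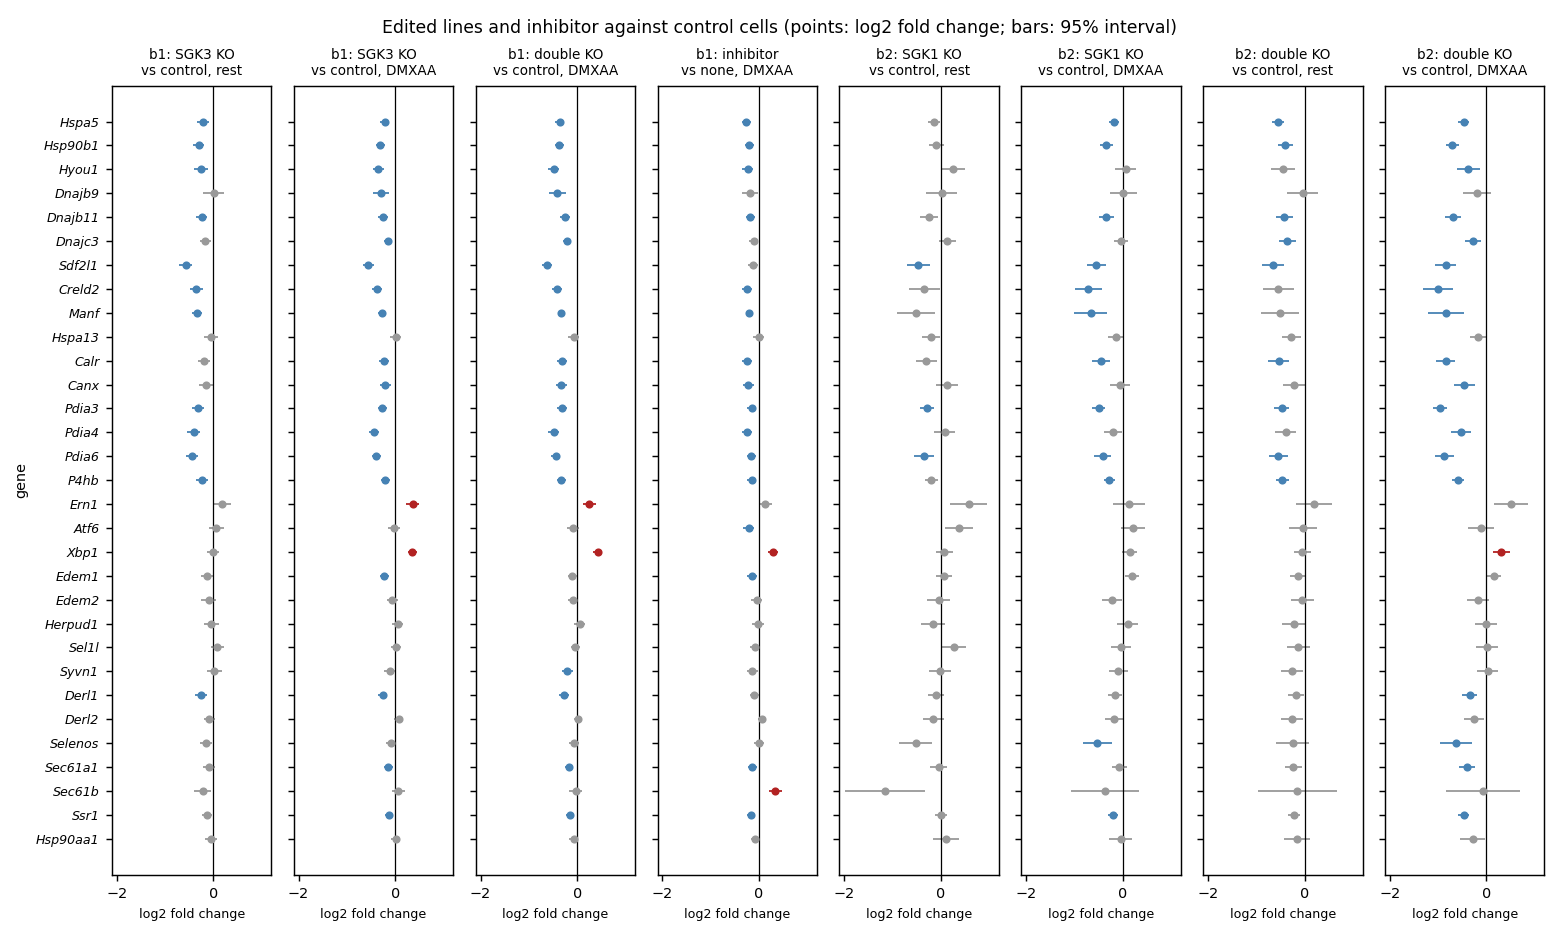
Log2 difference from control cells (or, for the inhibitor, from DMXAA alone) in 8 comparisons, with 95% intervals; coloured points passed an adjusted p of 0.05 (red higher, blue lower) and grey ones did not, and Derl3 is left out. Points of the chaperones and isomerases lie mostly left of 0, and Xbp1 is coloured red in 4 panels.

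Over the 8 comparisons of an edited line or the inhibitor with control cells, which share control libraries within a batch and are not independent, the number of calls differed from gene to gene. Pdia3 and Pdia6 were lower in all 8, Hspa5, Hsp90b1, Dnajb11, Sdf2l1 and P4hb in 7, and Creld2, Manf and Calr in 6. These tallies include the calls on Pdia3, Pdia6 and Sdf2l1 in the resting SGK1 knockout, which rested on single libraries. They also include the call on Hspa5 in the SGK1 knockout with DMXAA, lost in 10 of 16 alternatives. The share of all genes with such tallies was not counted. Of the chaperones, Hspa13, an ER-associated HSP70 relative, passed in none and Dnajb9 was lower in 2. Of the translocon genes, Ssr1 was lower in 5 and Sec61a1 in 4. No test compared the roles. Most degradation genes did not pass: Herpud1, Edem2, Sel1l (the adaptor of HRD1), Derl2 and Derl3 passed in none of the 8, Syvn1 in 1 and Edem1 and Selenos in 2, while Derl1 was lower in 4. Xbp1 was higher in 4 and Ern1 in 2. Atf6 was lower in 1 and Sec61b higher in 1, and Hsp90aa1, of which the read assignment among near-identical copies is not stated, passed in none.

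**Figure D4:**
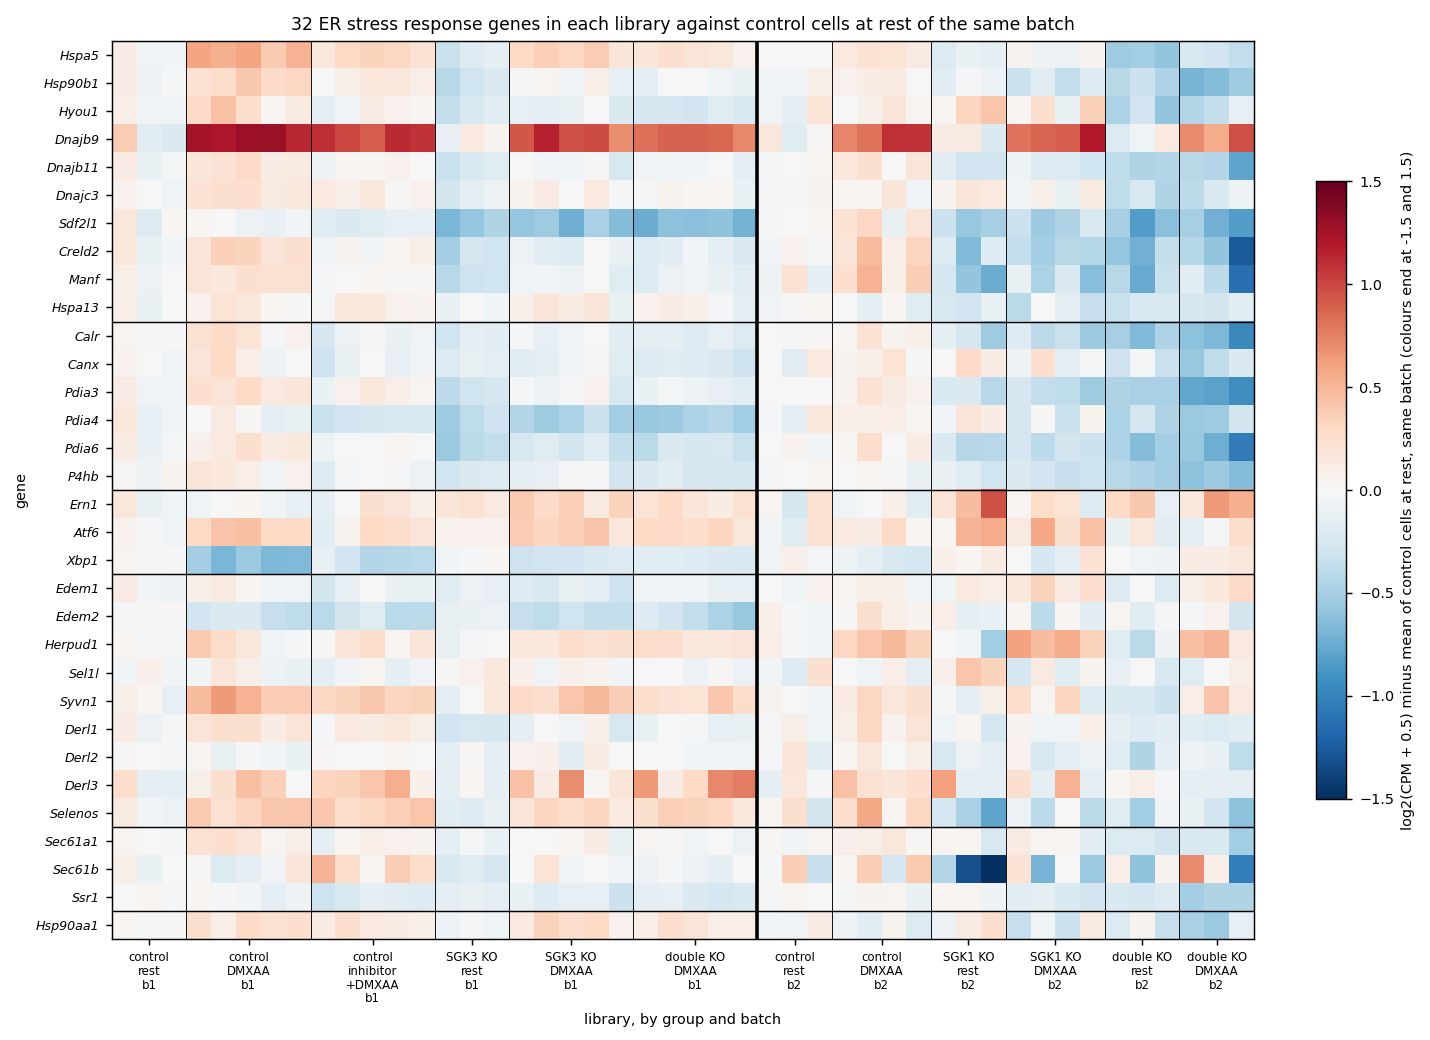
Each library's log2(CPM + 0.5) minus the mean of resting control cells of the same batch, with genes in rows grouped by role and libraries in columns grouped by line, treatment and batch; colours end at -1.5 and 1.5. Dnajb9 is red in every DMXAA column, and the rows of Sdf2l1, Pdia3 and Pdia6 are blue in most columns of the edited lines.

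The double knockout was compared with control cells under DMXAA in both batches, and for 10 of the 32 genes a difference between batches in that contrast passed the test, where 7.27% of all genes differed. All 10 were lower in b2 relative to b1. Pdia3 had a log2 difference between batches of -0.65 ± 0.09 (adjusted p = 9.0e-07), Creld2 of -0.60 ± 0.15, Calr of -0.54 ± 0.11 and Dnajb11 of -0.45 ± 0.09. Hspa5, at -0.36 in b1 and -0.47 in b2, did not pass (adjusted p = 0.35). The others were Selenos, Pdia6, Hsp90b1, Ssr1, P4hb and Derl3, whose counts are near 0. Creld2 was not called without library X (adjusted p = 0.051).

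Genes that hold a stress element in the printed promoters can be set beside those that do not, as a description. With DMXAA in b1, 9 of the 11 genes with either element were lower in the double knockout (all but Herpud1 and Derl3). The median log2 difference of the 11 was -0.32. Derl3, whose counts are near 0, is included in the medians of the 11 in both batches. Of the 14 without either element 6 were lower, with a median of -0.09. Among the 7 genes whose promoter sequence was lacking, 4 were lower (median -0.17). Of all genes 11.9% were lower. In b2 the same counts were 8 of 11 (median -0.69), 6 of 14 (median -0.23) and 4 of 7 (median -0.34). There 6.41% of all genes were lower. The windows are shown because of the b1 count, so whether the element goes with lower levels was not tested. For the response of control cells to DMXAA in b1, 8 of the 11, 3 of the 14 and 6 of the 7 rose. Of all genes 17.9% rose. In b2 the same response gave 0 of the 11, 1 of the 14 and 0 of the 7, where 2.52% of all genes rose. Sdf2l1, Pdia3, Pdia4 and P4hb, with no such element in the window searched, were lower in the double knockout with DMXAA in both batches, and Herpud1, whose element is printed above, was called in neither.

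Other genes of the ER and of the PERK branch were measured for comparison. Of 55 other genes of ER folding, export and degradation, 16 rose and 4 fell with DMXAA in control cells of b1 (17.9% and 17.4% of all genes). In the double knockout with DMXAA 20 of the 55 were lower and 8 higher in b1 (11.9% and 14.5% of all genes), and 21 lower and 1 higher in b2 (6.41% and 6.43%), there led by Pdia5 (log2 difference -0.70, adjusted p = 0.0018), an ER isomerase, and Ddost (-0.63, 5.7e-05), a subunit of the oligosaccharyltransferase. In the SGK1 knockout with DMXAA 2 of the 55 were lower, near the 4.07% of all genes, and with the inhibitor 17 were lower and 3 higher (10.1% and 10.6% of all genes). Of 14 tested genes of the PERK and ATF4 branch, which lowers protein synthesis, 6 rose and 3 fell in that response of b1 control cells, against the same 17.9% and 17.4%. Ppp1r15a (GADD34), which reverses the block of translation, rose by a log2 change of 4.90 ± 0.17, while Chac1, a glutathione-degrading target of ATF4, fell by 2.48. In b2 Ppp1r15a rose by 4.10 ± 0.24 in control cells. The control response of Chac1 was higher in b2 than in b1, by a log2 difference of 2.41 ± 0.46 in the joint fit (edgeR adjusted p = 0.0008). With the inhibitor Ppp1r15a was lower by a log2 difference of -1.05 ± 0.12 and in the double knockout of b1 by -1.18 ± 0.12 (adjusted p = 6.5e-07 and 4.2e-08).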

How the data were processed

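The labels give 50 libraries of poly-A RNA from RAW264.7 cells. The authors deposited estimated (expected) counts and TPM per gene, with an annotation that the labels' table names give as GENCODE M27. The submitters' processing notes name GRCm39, STAR 2.7.9a and StringTie 2.2.0, with no roles; how counts were made, strand and the treatment of reads shared between copies are not given in the sources used here. The deposited expected counts were whole numbers, so rounding changed none. The 1492 rows without a gene name (0.0363% of counts) were kept, subject to the expression filter. Each batch was fitted separately with edgeR 4.0.16 in R 4.3.3 (TMM scaling, its expression filter, robust quasi-likelihood F test, Benjamini-Hochberg adjustment over all genes tested, threshold 0.05), with 26 libraries and 16947 genes in b1 and 20 libraries and 16622 genes in b2; 2 between-batch differences came from a joint fit of 46 libraries. CPM are counts divided by the TMM-scaled library size. For b1 and b2 the scaling was that of each batch's own fit. For b3 it was made over b2 and b3 together, with library J and without the expression filter. The 95% intervals are 1.96 SE. Alternatives used DESeq2 1.42.0 and limma 3.58.1 on log2 of the deposited TPM + 1. The scripts were tested on simulated data. Among 71 pairs of replicates none were identical.

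The 32 genes, the other gene lists and the genes shown by library were chosen with earlier results of these data known. All 32 are named; values by library are given for the genes with the largest changes of each role. Library J of b3 has labels that conflict on treatment and was in no group. In b1 the replicate numbers gave little sign of pairing: 14 of 57 same-numbered pairs had deviations correlated above 0.1 (range -0.41 to 0.26). The median was 0.018, against -0.008 for pairs of other numbers. However, 17 of 26 libraries had a higher mean correlation with their own number, so pairing was not settled. Groups held 3 to 5 libraries; the depth per library is given in the report.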

Additional observations from a re-analysis of the deposited data

Results flagged for a closer look

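For 2 of 192 gene and group combinations with 4 or 5 libraries (1.04%), 1 library stood far from the others; chance alone marks about 1 in 20 such groups. Sec61b was at 157.7 CPM in library 2 of the SGK3 knockout with DMXAA, where the nearest of the other 4 was at 137 CPM. Hsp90aa1 was at 849.3 CPM in library 2 of control cells of b1 with DMXAA, below the nearest other library at 935.5 CPM. The response to DMXAA differed between lines for 2 genes by a test of the difference itself. For Xbp1 in b1 the SGK3 knockout minus control cells was 0.37 in log2 units (edgeR adjusted p = 0.014). For Pdia3 in b2 the double knockout minus control cells was -0.48 (edgeR adjusted p = 0.035). What moved with these 4 values was not tested.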

How the results depend on the processing

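Each count of called genes was recomputed under alternatives. With both batches in one fit it was 12 in place of 19 for the DMXAA response of control cells in b1, 11 for 19 in the SGK3 knockout, 8 for 18 with the inhibitor, 0 for 1 for the SGK3 difference of responses, and in b2 3 for 1 in control cells, 7 for 3 in the SGK1 knockout, 14 for 3 in the SGK1 knockout at rest, 15 for 9 in the double knockout at rest, 14 for 8 in the double against the SGK1 knockout and 3 for 1 for the double knockout difference of responses. With limma on TPM these were 11 and 10 for the b1 responses, 0 for both differences of responses, 2 for control cells of b2, 4 for the double knockout response (7), 0 for the SGK1 knockout at rest and 4 for the double against the SGK1 knockout; the log2 change of Manf in control cells of b1 turned to -0.088. With DESeq2 control cells of b2 gave 3 and the SGK1 knockout at rest 8. With only the groups compared in the fit the counts were 2 for control cells of b2, 1 for the double knockout response, 0 for the SGK1 knockout at rest and 0 for the double against the SGK1 knockout. With the rerun libraries added the double knockout response gave 4, the SGK1 knockout at rest 0, the double knockout difference of responses 0 and the double against the SGK1 knockout 4. Without the 5 libraries of steep length trend control cells of b2 gave 2 and the double knockout at rest 15. The double against the SGK1 knockout gave 4 and the batch difference of the control response 4 (main 2). Library D alone was left in the resting SGK1 knockout, so no count is given for comparisons that use that group. With the length trend removed, chosen after seeing the data, the SGK1 knockout response gave 6, with Ssr1 turning to 0.10, and control cells of b2 gave 2. The SGK1 knockout at rest gave 7 and the double knockout difference of responses 2. Sdf2l1 in the resting SGK1 knockout stood there at -0.15 and was not called (edgeR adjusted p = 0.36). The cause of these shifts was not tested. Without a filter no count moved by over 1.5 times. The share of all genes called in each alternative fit is not given beside these counts. Calls over all genes could move too: for the SGK1 knockout at rest they came to 270 without control library B and 3202 without knockout library D.

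Leaving out each library in turn, counts ranged from 2 to 5 for the SGK1 knockout response, 3 to 6 for the double knockout response, 0 to 11 for the SGK1 knockout at rest, 0 to 1 for both differences of responses, 2 to 9 for the double against the SGK1 knockout, 0 to 2 for the double against the SGK3 knockout, 15 to 20 for control cells and 14 to 24 for the SGK3 knockout response of b1, and 16 to 17 for the double knockout with DMXAA in b2. Whether the replicate numbers mark pairs was not settled. With the replicate block in b1 the counts were 20 and 20 for the responses. They were 12, 21, 21, 0 and 18 for the comparisons of lines and inhibitor and 1 for the difference of responses. Of 111 gene calls 1 was lost (Derl3 in the SGK3 knockout response, edgeR adjusted p = 0.09). Depth limits Derl3, which had 0 to 35 counts per library; what limits the other genes was not tested.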

Other observations

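Cytosolic heat shock genes, which answer to another stress pathway, rose with DMXAA in control cells of b1: 10 of 14 tested rose and none fell (17.9% and 17.4% of all genes). Hspa1b and Hspa1a, near-identical copies of HSP70 that may share reads, rose by log2 changes of 1.47 ± 0.11 and 1.38 ± 0.14, and their co-chaperone Dnaja1 by 0.62 ± 0.05 (edgeR adjusted p = 2.6e-12, 1.3e-09 and 1.6e-11). In control cells of b2 only Hspa1b and Hspa1a of this list were called, where 2.52% of all genes rose. They rose by log2 changes of 1.06 ± 0.16 and 1.08 ± 0.24 (edgeR adjusted p = 0.00022 and 0.0085). The control response was lower in b2 than in b1 for Hspa8 (log2 difference -0.55 ± 0.09) and Bag3 (-0.49 ± 0.12). In the double knockout of b1 with DMXAA both copies were higher than in control cells (log2 differences 0.66 ± 0.09 and 0.67 ± 0.11), while in b2 neither passed (-0.45 and -0.52, edgeR adjusted p = 0.068 and 0.17). Hsph1, a nucleotide exchange factor of HSP70, was lower in the double knockout with DMXAA by -0.51 ± 0.07 in b1 and -0.62 ± 0.07 in b2.

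Library J of b3 is labelled untreated in its title and treated with DMXAA in its treatment field. It had Dnajb9 at 21.6 CPM, Hspa5 at 1677 CPM, Xbp1 at 239 CPM and Herpud1 at 97.4 CPM.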
